A study of Mus musculus with 3 samples.

Results

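The cell cycle S and G2/M genes were 42 of the 32594 genes counted in a mouse prostate single-cell data set. They were taken by symbol: 17 genes read mainly around DNA replication (S genes) and 25 read mainly from late S phase to mitosis (G2/M genes). Single-cell RNA of whole fresh prostates of C57BL6 mice, 12 to 15 weeks old in one label and 12 weeks in another, was counted in 3 libraries. One library was Srd5a2 knockout (Srd5a2-/-) and the other 2, named heterozygote 1 and 2, were Srd5a2 heterozygotes (Srd5a2+/-); no wild-type library was analysed here. Srd5a2 encodes a steroid 5-alpha-reductase, the enzyme that turns testosterone into dihydrotestosterone. The allele was not described as limited to a cell type, and the number of animals per library was not given. Before counting, the tissue of both genotypes spent 2 h at 37 °C in a collagenase buffer that held dihydrotestosterone and a rock inhibitor, so all cells had met added hormone. The study's title concerns how the prostate persists without SRD5A2, and the comparison made here was how these genes were expressed in each cell type and genotype.

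A cell that commits to division first raises E2F-driven genes for nucleotide supply and DNA replication, then the cyclins, kinases and spindle proteins that carry it through mitosis. Most cells of an adult prostate are not dividing, and its luminal and basal epithelium renews slowly while androgen is present. Many G2/M promoters carry a CCAAT box, bound by NF-Y, and a cell cycle homology region (CHR, TTTGAA) bound by the DREAM and MuvB complexes, whereas S promoters often carry E2F sites.

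Promoters are shown first because the 2 groups of genes differ in them and because the groups also differed in the counts below. RefSeq promoter windows (GRCm38.p6, 250 bases before to 50 after each start) matched 35 of the 42 genes in 38 windows. CCAAT, on either strand, was in 20 of 22 G2/M windows (90.9%) and in 68.8% of the S windows, against 37.4% of all 32817 windows. TTTGAA was in 16 of 22 G2/M windows (72.7%) and 6.25% of S windows, against 17.9% of all. The E2F-type motif, TT followed by 2 bases that are each C or G and then CGC, was in 18.2% of G2/M windows and 68.8% of S windows, against 9.57% of all. Overlaps between motifs were not removed, and a match of letters is not a binding site. For each gene below, 150 bases upstream of the start are given, with matched letters in capitals; a reverse-strand CCAAT reads ATTGG, and a reverse-strand E2F-type motif reads GCG, then 2 bases that are each C or G, then AA. The G2/M genes shown were all lower in knockout luminal cells and span the range of motif content: Mki67 at chr7:135716380-135716529 (minus strand), Cenpf at chr1:189688087-189688236 (minus strand), Ube2c at chr2:164769748-164769897 (plus strand), Cdc20 at chr4:118437353-118437502 (minus strand), Cdk1 at chr10:69352939-69353088 (minus strand), Hmmr at chr11:40733438-40733587 (minus strand) and Birc5 at chr11:117849087-117849236 (plus strand). The S genes shown are the 3 with the largest share, over the 3 libraries, of luminal UMIs in cells rich in G2/M genes: Uhrf1 at chr17:56303171-56303320 (plus strand), Mcm3 at chr1:20820313-20820462 (minus strand) and Mcm5 at chr8:75109359-75109508 (plus strand).
Mki67: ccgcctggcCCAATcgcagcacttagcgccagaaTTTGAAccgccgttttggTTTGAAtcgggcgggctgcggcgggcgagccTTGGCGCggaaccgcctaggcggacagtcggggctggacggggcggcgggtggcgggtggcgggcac
Cenpf: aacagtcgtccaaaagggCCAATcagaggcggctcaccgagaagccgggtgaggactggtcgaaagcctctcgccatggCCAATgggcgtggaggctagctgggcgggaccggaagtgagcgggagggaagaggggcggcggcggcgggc
Ube2c: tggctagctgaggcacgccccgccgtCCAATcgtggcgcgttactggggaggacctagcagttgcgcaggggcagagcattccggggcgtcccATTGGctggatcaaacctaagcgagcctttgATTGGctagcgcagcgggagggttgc
Cdc20: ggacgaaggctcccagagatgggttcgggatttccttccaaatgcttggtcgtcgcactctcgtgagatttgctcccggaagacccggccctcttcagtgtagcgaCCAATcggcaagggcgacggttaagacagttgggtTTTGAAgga
Cdk1: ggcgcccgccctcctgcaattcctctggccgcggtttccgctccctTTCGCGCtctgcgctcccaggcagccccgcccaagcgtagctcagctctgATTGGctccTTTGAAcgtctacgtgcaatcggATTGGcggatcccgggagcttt
Hmmr: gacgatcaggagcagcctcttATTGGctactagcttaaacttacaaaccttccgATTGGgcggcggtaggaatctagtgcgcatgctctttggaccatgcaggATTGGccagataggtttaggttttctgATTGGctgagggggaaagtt
Birc5: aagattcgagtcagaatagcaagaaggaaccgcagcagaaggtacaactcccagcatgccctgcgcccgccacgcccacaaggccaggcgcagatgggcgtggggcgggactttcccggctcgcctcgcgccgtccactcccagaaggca
Uhrf1: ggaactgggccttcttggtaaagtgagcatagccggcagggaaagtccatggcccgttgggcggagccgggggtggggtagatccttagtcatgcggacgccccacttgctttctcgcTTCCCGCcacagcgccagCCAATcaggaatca
Mcm3: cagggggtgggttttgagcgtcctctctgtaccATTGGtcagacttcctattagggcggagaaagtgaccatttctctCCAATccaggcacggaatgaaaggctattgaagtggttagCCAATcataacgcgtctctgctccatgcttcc
Mcm5: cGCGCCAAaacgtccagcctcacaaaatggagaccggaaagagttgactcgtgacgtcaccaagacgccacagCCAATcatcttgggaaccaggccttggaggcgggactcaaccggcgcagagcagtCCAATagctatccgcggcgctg
Mki67 held 1 CCAAT, 2 TTTGAA and 1 E2F-type motif in this stretch. Hmmr held 4 CCAAT boxes, Ube2c 3, and Cdk1 held 2 together with 1 TTTGAA and 1 E2F-type motif. Outside the printed stretch, the full windows of Cenpf, Ube2c and Hmmr also held TTTGAA, and that of Hmmr an E2F-type motif. Birc5 held none of the 3 motifs, also over its full window of 300 bases, and was among the genes that fell. Nusap1, which also fell and is not shown, likewise held none of the 3 motifs over its full window. Uhrf1 and Mcm5 each held 1 E2F-type motif here, and Mcm3 held 3 CCAAT boxes and 0 E2F-type motifs in these 150 bases. The full window of Mcm3 did hold an E2F-type motif.

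The knockout, heterozygote 1 and heterozygote 2 libraries held 9031, 4527 and 9469 cells after filters, with medians of 4365, 6972 and 4919 unique molecular identifiers (UMIs, 1 per captured RNA molecule) per cell. Srd5a2 was counted 17, 145 and 210 times over all barcodes, or 0.132, 3.05 and 2.08 counts per 1000000 UMIs (CPM), lowest in the library labelled knockout. Between 15 and 57 cell barcodes were shared by any 2 libraries. Seminal vesicle secretory genes made up 46.5% of the knockout's UMIs and 15.0% and 13.8% of the heterozygotes', so levels per total UMIs in the whole libraries are not compared. CPM by cell type are per UMIs of that type, without further scaling unless TMM scaling is named. Cells were clustered with the cell cycle genes left out, and each cluster was called luminal-like, basal-like and so on from its markers; the names are shortened to luminal or basal below. In luminal cells the 11 secretory luminal markers, which helped to name the clusters, were at 659, 1292 and 1083 per 10000 UMIs. The 7 basal markers were at 8.83, 8.23 and 6.62 there, and the 8 seminal vesicle markers at 226, 30.8 and 66.9. Each value below is for 1 library, so intervals cover counting error only, and nothing says that the libraries came from separate animals. With 1 knockout library, variation among knockouts was not measured. In the tests, a gene's own scatter came only from how heterozygote 1 differed from heterozygote 2. A p-value therefore cannot separate the genotype from 1 unusual library. Fewer dividing cells and less RNA per dividing cell cannot be told apart in a sum, and cell counts are given for that reason.

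Summed G2/M RNA was highest in T or NK cells, and in luminal cells it was lowest in the knockout. In T or NK cells, the summed G2/M genes reached 6.02, 9.84 and 8.15 per 10000 UMIs in the knockout, heterozygote 1 and heterozygote 2 (230, 13 and 71 cells). In these, 1 cell held 4.59%, 58.9% and 30% of the G2/M UMIs. The same sum was 0.817, 0.968 and 0.733 in basal cells, and 0.327, 0.647 and 0.739 in luminal cells. Thus basal cells of the knockout stood inside the range of the heterozygotes, and luminal cells of the knockout stood below both. The luminal counting intervals (0.303 to 0.354, against 0.617 to 0.679 and 0.714 to 0.765) did not overlap. They treat each UMI as independent, and are too narrow where single cells hold many UMIs. The richest luminal cell held 0.7752%, 10.98% and 3.986% of its library's luminal G2/M UMIs. Summed S genes were 2.77, 3.02 and 2.66 per 10000 in basal cells and 1.09, 1.19 and 1.22 in luminal cells. The knockout's luminal S sum was thus also below both heterozygotes, by less than its G2/M sum. Its counting interval (1.04 to 1.13) did not overlap theirs (1.15 to 1.23 and 1.19 to 1.26). The G2/M sum over the S sum, which does not depend on how much secretory RNA a cell holds, was 0.295, 0.320 and 0.276 in basal cells. In luminal cells it was 0.302, 0.545 and 0.605, so the knockout's luminal ratio lay in the basal range and the heterozygotes' luminal ratios lay above it. The luminal cells were mostly secretory, and in the smaller proximal group (129, 325 and 277 cells) the G2/M sum was 0.424, 0.820 and 0.744, again lowest in the knockout. In barcodes with under 500 genes, which were taken as a measure of free RNA, the G2/M sum was 0.234 in the knockout (52 UMIs) and 0.336 in heterozygote 2 (75 UMIs). The knockout's luminal G2/M level was 0.327. The S sums in the same barcodes were 0.631 and 0.658, below the luminal 1.09 and 1.22 of these libraries. The mix of cell types in these barcodes is not known, and the share of free RNA in luminal cells was not tested. Heterozygote 1 had only 2 such barcodes.

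**Figure D1:**
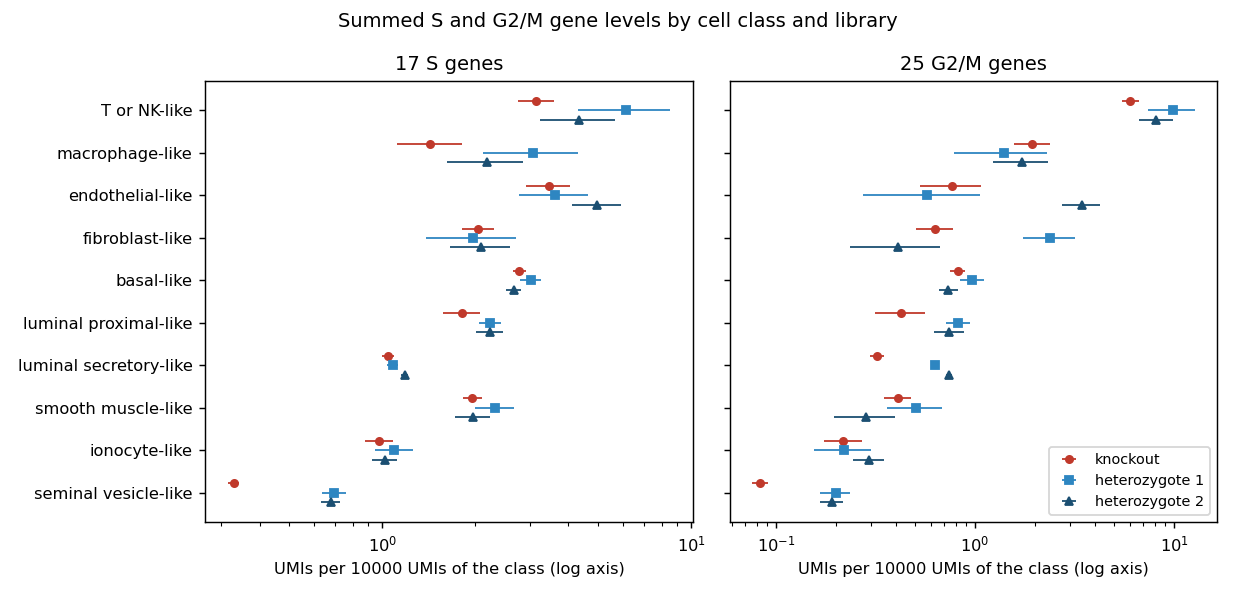
Summed S genes (left) and G2/M genes (right) per 10000 UMIs, on a log axis, in each cell type and library, with 95% Poisson intervals for counting error. Luminal secretory and proximal cells are drawn apart. The knockout's secretory point is lowest in both panels: 1.04 for S genes, beside 1.08 and 1.18 in heterozygotes 1 and 2. For G2/M genes it is at 0.321, further below the heterozygotes (0.629 and 0.739).

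Single cells carried much of 2 sums in the stroma as well. In endothelial cells the G2/M sum was 0.767, 0.573 and 3.43 per 10000, and 1 cell held 72.3% of the UMIs of heterozygote 2. In fibroblasts it was 0.629, 2.38 and 0.412, and 1 cell held 75.6% of those of heterozygote 1. Without heterozygote 1, whose T or NK cells were few, 16 of 25 G2/M genes had their highest mean CPM over the other 2 libraries in T or NK cells and 9 in endothelial cells. In the seminal vesicle-like cells the sum was 0.0834, 0.200 and 0.191, and with the seminal vesicle secretory genes taken out of the total it was 0.317, 0.446 and 0.439. It was lower in the knockout on both scales, but over a different mix of clusters. Cluster 3 made up 19.8% of these cells in the knockout and 84.4% and 74.2% in the heterozygotes.

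Single S genes were highest in different cell types. Pcna, the sliding clamp of DNA polymerases, was read in every cell type: 146, 159 and 157 CPM in basal cells, 50.6, 48.2 and 49.7 in luminal cells, and 208, 258 and 256 in endothelial cells. Basal exceeded luminal in all 3 libraries. Rrm1 and Rrm2, the large and small subunits of ribonucleotide reductase, which makes deoxyribonucleotides, did not follow each other. Rrm1 was highest in smooth muscle, at 49.5, 82.7 and 60.2 CPM. Rrm2 was at 40.3, 15.9 and 30.9 CPM in fibroblasts and at 0 UMIs in the endothelial cells of all 3 libraries. Tyms, thymidylate synthase, was highest in endothelial cells, at 38.3, 34.4 and 82.6 CPM, on 17, 6 and 20 UMIs. Of the replicative helicase genes, Mcm5 and Mcm6 were highest in T or NK cells in all 3 libraries, Mcm5 at 17.5, 35.1 and 57.1 CPM on 12, 2 and 7 UMIs. Mcm3 was highest there in the heterozygotes (70.3 and 48.9 CPM, on 4 and 6 UMIs), but in the knockout it was at 10.2 there and 20.3 in endothelial cells. Mcm7 was at 14.6, 17.6 and 16.3 CPM in T or NK cells, close to its 15.1, 18.1 and 14.8 in basal cells. Cdt1, which loads that helicase, had 3 UMIs in all cells and was not read further.

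In luminal cells (1335, 2402 and 3717), 8 G2/M genes and no S gene were lower in the knockout. Of the 25 G2/M genes, 24 passed the filter on low counts; 8 (Mki67, Cenpf, Birc5, Ube2c, Cdc20, Cdk1, Hmmr and Nusap1) were lower and 0 higher in edgeR's quasi-likelihood test (adjusted p under 0.05), and 15 had an unadjusted p under 0.05. Over all 16662 genes tested, 1.16% were lower and 0.786% higher. The median log2 difference of the 24, knockout minus heterozygote, was -1.42, beside -0.04 for all genes. The knockout was below both heterozygotes for 23 of the 24, which held for 35.7% of all genes. The filter could be met by 1 library. Cenpf, Hmmr, Birc5, Cdc20 and Mki67 (3, 3, 6, 6 and 7 knockout UMIs) met it only through the heterozygotes. So did Ccna2, Ccnb1, Kif20a and Plk1, which were not called. Genes that entered in this way could hardly come out higher, which limits both counts of lower genes. Of the 17 S genes, 16 passed the filter, 0 were lower or higher (also 0 lower with DESeq2 and with limma-voom), 1 had an unadjusted p under 0.05, and their median was -0.34. The knockout was below both heterozygotes for 11 of these and above both for 2, beside 35.7% and 31.9% of all genes. Bub1, a checkpoint kinase, was not tested and had 2, 9 and 12 UMIs. Without the 10 cells of each library richest in G2/M UMIs, 2 G2/M genes (Birc5 and Nusap1) were lower, and with DESeq2 3 were. Single clusters were tested as well, chosen after seeing the data. In cluster 2, 20 G2/M genes were tested and 5 were lower (median log2 difference -1.42), and in cluster 1 it was 1 of 17 (Mki67, median -1.26). In cluster 4, 0 of 11 passed, 6 had an unadjusted p under 0.05 and the median was -1.69. In clusters 14 and 13, 0 of 6 and 0 of 4 passed, with medians of -1.09 and -0.29, and in cluster 18 no G2/M gene passed the filter. Luminal clusters 15 and 33 held under 50 knockout cells and were not tested alone.

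The genes of mitotic entry were read at these levels, given as CPM with TMM scaling, as in the next 3 paragraphs on luminal cells, in the order knockout, heterozygote 1, heterozygote 2. Cdk1, the kinase that drives entry into mitosis, was at 0.613, 2.12 and 2.90 (12, 56 and 128 UMIs) and fell by 2.04 ± 0.58 (SE) on the log2 scale (edgeR adjusted p = 0.0281). Ccnb1, the cyclin B partner of that kinase, was at 0.204, 1.02 and 1.31, a log2 difference of -2.50 ± 0.81 that did not pass (edgeR adjusted p = 0.0861). Both heterozygotes exceeded the knockout for each gene. Ccna2, cyclin A2, had 2, 17 and 25 UMIs, and Plk1, a kinase of spindle and cytokinesis control, had 2, 10 and 21. By the ratio of counts per total, Ccna2 was 5.83-fold lower (95% counting interval 1.52 to 49.7) and Plk1 4.30-fold lower (1.10 to 37.1), and neither passed the test. Ccnb2, another cyclin B, was at 1.17, 2.81 and 3.08 and did not pass either.

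The genes of the chromosome and kinetochore included the largest differences. Mki67, which coats mitotic chromosomes and is the usual stain for cycling cells, was at 0.357, 2.46 and 4.19 CPM (7, 65 and 185 UMIs) and fell by 3.22 ± 0.60 (edgeR adjusted p = 2.62e-05). Cenpf, a kinetochore protein, was at 0.153, 3.03 and 3.73 (3, 80 and 165 UMIs) and fell by 4.43 ± 0.70 (edgeR adjusted p = 1.42e-07). With so few knockout UMIs, the plain ratio was 22.7-fold lower, with an exact 95% counting interval of 7.67 to 110.7. Birc5, survivin of the chromosomal passenger complex, was at 0.306, 2.88 and 3.33 (6, 76 and 147 UMIs) and fell by 3.33 ± 0.63 (edgeR adjusted p = 3.28e-05). For each of these genes the knockout lay below both heterozygotes by more than they differed from each other. Cenpa, the centromeric histone, was at 0.970, 2.16 and 2.81, a difference that did not pass (edgeR adjusted p = 0.254). Top2a, the topoisomerase that untangles sister chromatids, was at 8.32, 10.6 and 11.5 (163, 279 and 507 UMIs), a log2 difference of -0.41 ± 0.32 (edgeR adjusted p = 0.970).

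The genes of mitotic exit and the spindle were mixed. Ube2c, the ubiquitin-conjugating enzyme of the anaphase-promoting complex, was at 0.613, 2.62 and 5.25 CPM (12, 69 and 232 UMIs) and fell by 2.69 ± 0.53 (edgeR adjusted p = 9.18e-05). Cdc20, an activator of the same complex, was at 0.306, 1.78 and 1.88 (6, 47 and 83 UMIs) and fell by 2.56 ± 0.70 (edgeR adjusted p = 0.0177). Heterozygote 2 was above heterozygote 1 for Ube2c, and the knockout was below both for both genes. Hmmr, a spindle-associated protein, was at 0.153, 1.18 and 1.34 (3, 31 and 59 UMIs) and fell by 3.01 ± 0.85 (edgeR adjusted p = 0.0273), a plain ratio of 8.33-fold lower with a counting interval of 2.76 to 41.1. Nusap1, which binds spindle microtubules, was at 2.60, 5.31 and 7.83 (51, 140 and 346 UMIs) and fell by 1.34 ± 0.40 (edgeR adjusted p = 0.0403). By contrast, Prc1, a bundler of midzone microtubules, was at 3.22, 3.56 and 3.01, and Cks2, a small subunit of cyclin-dependent kinases, at 8.12, 10.4 and 8.39: for these the knockout lay within or near the heterozygotes. Kif23, a kinesin of cytokinesis, was at 1.38, 3.45 and 1.56, so the heterozygotes themselves were far apart. Mki67, Cenpf, Ube2c, Cdc20 and Nusap1 overlap a gene on the other strand in GENCODE vM21 (Gm45240, Gm37239, Tnnc2, Elovl1 and Oip5), and the counting's use of strand was not given in the sources used here.

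**Figure D2:**
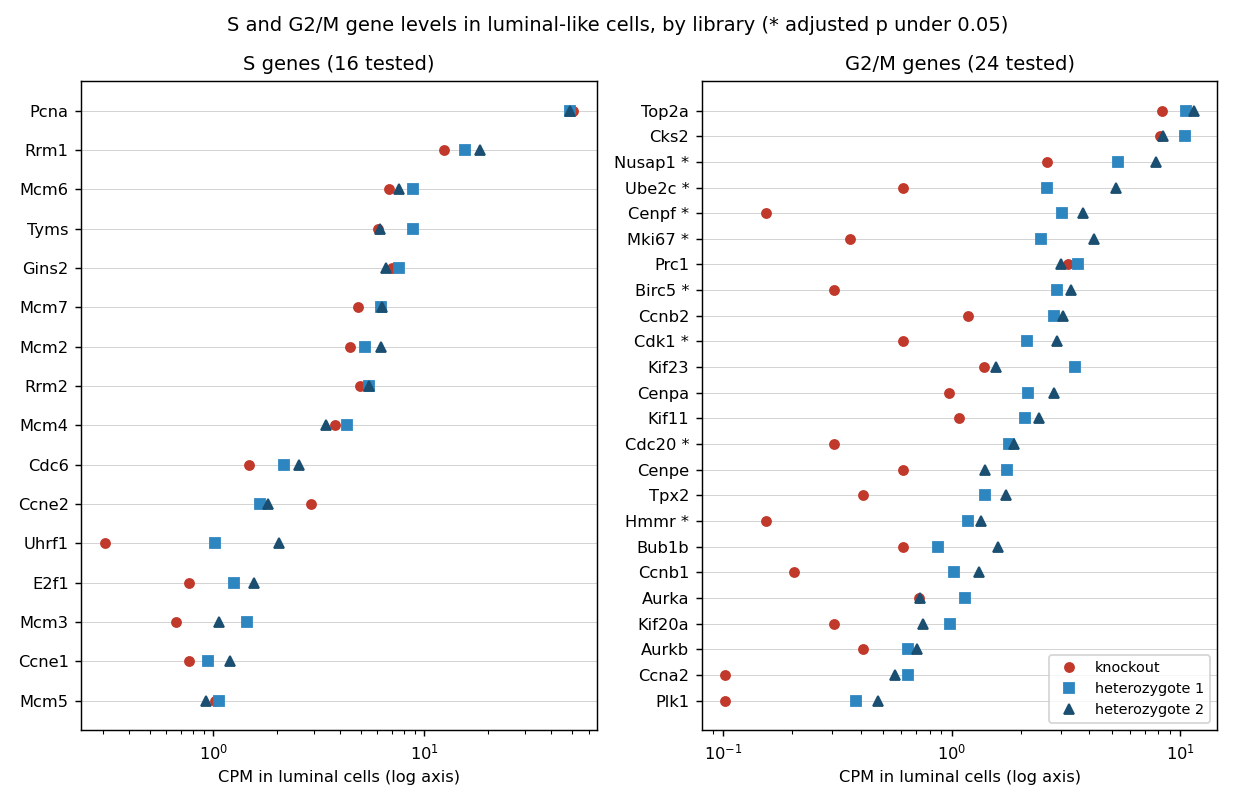
TMM-scaled CPM in luminal cells, on a log axis, of each tested S gene (16) and G2/M gene (24) in the 3 libraries; an asterisk marks an adjusted p under 0.05. The knockout points of Cenpf (0.153), Birc5 (0.306) and Mki67 (0.357) lie well below both heterozygotes, while the 3 Pcna points (50.9, 48.9 and 48.8) coincide.

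No S gene passed in the same luminal cells. Pcna was at 50.9, 48.9 and 48.8 CPM (997, 1290 and 2158 UMIs), a log2 difference of 0.06 ± 0.29. Mcm2, a helicase subunit, was at 4.44, 5.23 and 6.22 (-0.37 ± 0.37), and Mcm5, another, at 1.02, 1.06 and 0.928 on 20, 28 and 41 UMIs (0.04 ± 0.61). Tyms was at 6.02, 8.80 and 6.18 (-0.31 ± 0.35). The knockout was below both heterozygotes for Mcm2 and Tyms, above both for Pcna and between them for Mcm5, and edgeR's adjusted p was 1.00 for all 4 genes. Ccne1 and Ccne2, the E cyclins of the step from G1 into S, pointed in opposite directions: Ccne1 was at 0.766, 0.948 and 1.20 (-0.50 ± 0.63), and Ccne2 at 2.91, 1.67 and 1.81 (0.74 ± 0.46, edgeR adjusted p = 0.824). Uhrf1, which keeps DNA methylation through replication, was the S gene with the largest difference, at 0.306, 1.02 and 2.06 (6, 27 and 91 UMIs), -2.34 ± 0.71 with an edgeR adjusted p of 0.0514, just short of passing.

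Much of the heterozygotes' luminal G2/M RNA lay in few cells, and no such cell was seen in the knockout. Luminal cells with UMIs of at least 10 different G2/M genes numbered 0 among the 1335 knockout cells, 7 among 2402 (0.291%) for heterozygote 1 and 26 among 3717 (0.700%) for heterozygote 2. These 7 and 26 cells held 34.95% and 43.1% of their library's luminal G2/M UMIs. The exact Clopper-Pearson interval of the count of 0 reaches 0.276%, and a limit of 3 counts gives 0.225%; heterozygote 1's own interval was 0.117% to 0.6%. With at least 5 genes, the numbers were 0, 11 and 38, and with at least 3 they were 16, 38 and 93 (1.20%, 1.58% and 2.50%). In smooth muscle, at medians of 5607, 4214 and 4399.5 UMIs, 1 cell of each library had at least 3 (0.150%, 0.568% and 0.417%). In seminal vesicle-like cells, at medians of 5685, 12594.5 and 12377 UMIs, 0.277%, 1.06% and 1.51% had at least 3, and 0, 2 and 5 cells had at least 5. Of the cells left unnamed, 1, 10 and 8 had at least 5. At a single G2/M gene the order turned: 26.6%, 25.9% and 23.7% of luminal cells, with a knockout median of 12948 UMIs per luminal cell against 9475 and 10634. The most G2/M genes seen in 1 luminal cell were 4, 22 and 23. After thinning each cell to 3000 UMIs, which left out 162, 166 and 689 shallower cells, cells with at least 3 G2/M genes numbered 1, 9 and 29 (0.0853%, 0.403% and 0.958%).

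**Figure D3:**
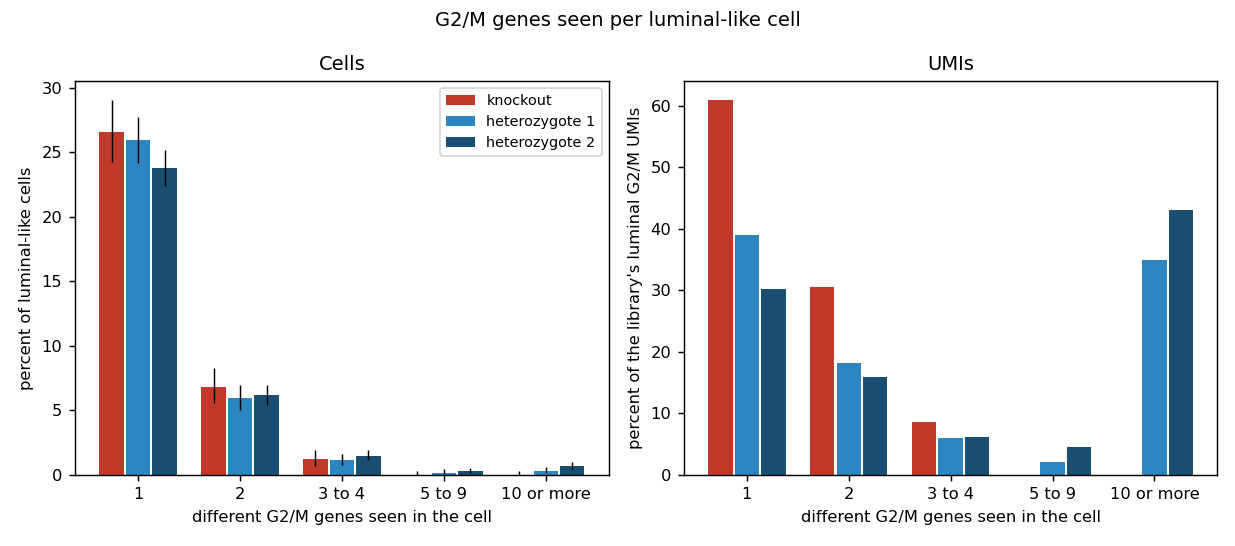
Left, percent of luminal cells by the number of different G2/M genes with a UMI, per library, with 95% Clopper-Pearson intervals; right, percent of the library's luminal G2/M UMIs held by those cells. The knockout has no luminal cell with 5 or more, while cells with 10 or more hold 34.95% and 43.1% of the heterozygotes' UMIs.

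The cells with at least 10 G2/M genes kept luminal markers. In the 7 and 26 cells, all 11 secretory luminal markers were counted, at 3089 and 1663 per 10000 UMIs, beside 1282 and 1077 in the other luminal cells. T or NK markers were at 0 of 8 in both libraries, macrophage markers at 0 of 8 and 2 of 8, and basal markers at 1.88 and 5.75 per 10000, beside 8.26 and 6.63. The cells were spread over clusters 1, 2 and 15 in heterozygote 1 and over 7 clusters in heterozygote 2. The luminal clusters were filled unequally, since cluster 2 was the largest in the knockout (35.6% of its luminal cells) and cluster 1 in the heterozygotes (28.6% and 24.2%). Cluster 15 held 41, 259 and 303 cells, or 3.07%, 10.8% and 8.15% of the luminal cells. Of these, 0, 3 and 4 had at least 10 G2/M genes. The 10 seminal vesicle secretory genes were also all higher in knockout luminal cells, with a median log2 difference of 5.30, and the summed secretory luminal markers were lower; their part in the result was not tested. Among barcodes with at least 3 G2/M genes in any cell type, 22.0%, 4.35% and 22.3% were called doublets and left out, beside 9.54%, 4.05% and 10.6% of all barcodes.

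How far each gene marked cells with at least 3 other G2/M genes, a wider set than the cells above, differed within the list. Over the 3 libraries, 87.9% of luminal Cenpf UMIs, 81.3% of Mki67, 79.6% of Hmmr, 75.7% of Cdc20, 69.4% of Cdk1, 65.8% of Ube2c and 65.1% of Birc5 UMIs lay in cells that held at least 3 other G2/M genes. For Top2a it was 26.1%, for Nusap1 13.6%, for Kif23 9.63% and for Cks2 9.57%, so most RNA of these genes lay in cells with few others. Of the S genes, Uhrf1 (53.2%), Mcm3 (37.8%) and Mcm5 (34.8%) were high over the 3 libraries, while Pcna (6.39%) and Gins2 (6.04%), a subunit of the helicase's GINS partner, were low. These shares came from the heterozygotes: Uhrf1 was at 37.0% and 61.5% there, Mcm3 at 28.9% and 55.3% and Mcm5 at 42.9% and 46.3%, and all 3 were at 0 in the knockout, where Cdc6 was highest (13.8%). In the heterozygotes, cells with at least 3 G2/M genes also held more S RNA: 417 and 382 CPM for the 17 S genes together, beside 108 and 109 in cells with none. In the knockout's 16 such cells the values were 92.3 and 109.9, with no excess. The cells were not alike, since all 16 held 3 to 4 G2/M genes. The heterozygotes' 38 and 93 included 11 and 38 with at least 5, and their cells with 3 to 4 were not read apart. Cells with at least 3 had higher medians of UMIs than cells with none: 31696 against 11171 in the knockout, 16998.5 against 8487.5 in heterozygote 1 and 19402 against 9166 in heterozygote 2.

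**Figure D4:**
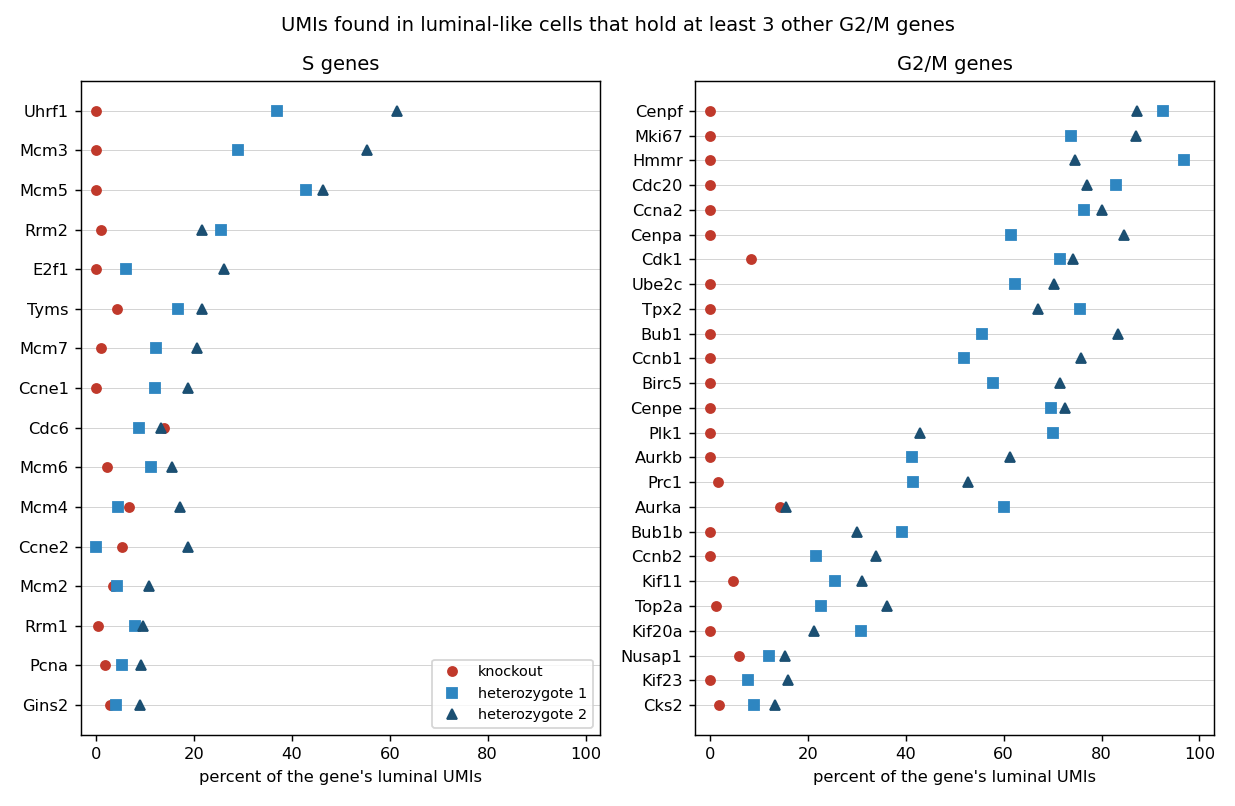
Percent of each gene's luminal UMIs that lie in cells holding at least 3 other G2/M genes, by library, for genes with at least 20 luminal UMIs. The heterozygotes' points for Cenpf and Mki67 lie high and those for Cks2 and Pcna low, and the knockout's points for Cenpf and Mki67 lie at 0.

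No member was called in basal cells (1248, 621 and 1454). Of 11 G2/M and 14 S genes tested there, 0 passed edgeR's test in either direction and 1 S gene had an unadjusted p under 0.05, where 1.39% of all genes were lower and 1.02% higher. DESeq2 and limma-voom also called 0. The medians were 0.13 and 0.03. Mki67 had 7, 8 and 2 basal UMIs, Top2a 22, 14 and 9, and Pcna 864, 351 and 693. Basal cells with at least 3 G2/M genes were 1.44%, 0.805% and 0.344%, highest in the knockout, whose basal cells were also deepest (medians of 3854.5, 3192 and 2550.5 UMIs). Thinned to 3000 UMIs the shares were 0.541%, 0.510% and 0.203%. Thinned to 1000 UMIs, the knockout's share minus the heterozygotes' mean was -0.0805 percentage points, on 0, 1 and 0 cells. The difference between luminal and basal cells in their genotype difference was tested by an edgeR interaction term, added after seeing the data. Of 22 G2/M genes, 20 were more negative in luminal cells (median -1.76), 7 had an unadjusted p under 0.05 and 0 passed, where 0.113% of all genes passed in that direction and 0.125% in the other. Birc5 had the value -3.52 ± 1.04 (adjusted p = 0.156), so the luminal difference was not shown to differ from the basal one for any member. Of 16 S genes, 0 passed and 3 had an unadjusted p under 0.05.

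In the seminal vesicle-like cells (2528, 378 and 662), 1 member passed. Cdc6, which loads the replicative helicase, was higher in the knockout, with 321, 35 and 44 UMIs (log2 difference 1.23 ± 0.32, edgeR adjusted p = 0.002), where 6% of genes were higher and 5.17% lower. In cluster 3, the one cluster of this type with at least 50 cells in every library, the UMIs were 61, 34 and 42 and the difference was 0.27 ± 0.38 (edgeR adjusted p = 0.964). Cluster 12 held 235 of the knockout's 321 UMIs. The call was also lost with DESeq2. In fibroblasts, smooth muscle, endothelial cells and ionocytes, 2 to 13 members passed the filter and 0 were called in each by edgeR, DESeq2 or limma-voom; 1, in ionocytes, had an unadjusted p under 0.05 in edgeR. The backgrounds there, lower and higher, were 0.804% and 0.545%, 2.34% and 1.82%, 0.675% and 0.337%, and 0.958% and 0.785%.

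Of the other cell cycle pathway lists, only that of G2/M genes held calls over all luminal cells, where 1.16% of all genes were lower and 0.786% higher. Of 29 other G2/M genes tested, Cdca3, which helps degrade the mitosis inhibitor Wee1, and Ckap2, a spindle microtubule protein, were lower and 0 were higher (median -0.35). The knockout was below both heterozygotes for 18 of the 29 and above both for 6, beside 35.7% and 31.9% of all genes. Cdca3 had 8, 53 and 137 UMIs (-2.64 ± 0.62) and Ckap2 3, 26 and 63. The most abundant of that list, Hmgb2 (a chromatin protein), Rangap1 (the activator of the Ran GTPase) and Cks1b, did not pass. Of 27 other S genes, 0 passed (median -0.09), Nasp, Slbp and Brip1 included. All 6 G1 cyclins and kinases missed the threshold (median -0.38): Cdk4 was at 48.2, 56.0 and 48.3 CPM, Ccnd1 at 35.4, 44.1 and 35.1, and Ccnd3 at 22.6, 35.6 and 30.2. In the secretory cells alone and in cluster 1, Cdk6 was called lower, and no gene of this list passed in the other luminal clusters tested. All 7 CDK inhibitors missed it too (median -0.09). Cdkn1a, p21, was at 384, 273 and 268 CPM, highest in the knockout, with a difference of 0.51 ± 0.29 (edgeR adjusted p = 0.722). Of 17 pocket protein, E2F and DREAM genes 0 passed (median -0.14); Foxm1, an activator of G2/M genes, had 1, 13 and 15 UMIs.

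In other cell types single pathway genes passed. In fibroblasts Ccnd2, a D cyclin, was higher (408, 31 and 43 UMIs, 1.29). In ionocytes Cdkn1a was higher (0.98) and Cdkn1c, p57, lower (-1.31). In smooth muscle the inhibitor Cdkn2b was lower (-1.84) and the condensin subunit Smc4 higher (0.90). In the seminal vesicle-like cells, where clusters were filled unequally, Cdkn1c (-1.70), Cdkn2c (-0.90), Cdkn2d (-0.90), Ccnd1 (-1.53), Cdk6 (-1.44), Anln (-1.76) and Gmnn (-0.82) were lower. There the helicase Brip1 (2.05) and the polymerase subunit Pola1 (1.10) were higher. The lists tested in these cells held 7 CDK inhibitors, 6 G1 cyclins and kinases, 19 other G2/M genes and 23 other S genes. Over all genes tested there, 5.17% were lower and 6% higher. In cluster 3 alone none of these genes passed, and of the pathway lists only Cdkn2a did, lower in the knockout.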

How the data were processed

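The members and gene lists were chosen with earlier results of these data known. The authors deposited raw UMI counts per gene and barcode for each library, for which the submitters' processing notes name Cell Ranger 3.1.0 and the build mm10; cell calling settings were not given in the sources used here. The knockout matrix held 129015041 UMIs over 13273 barcodes, that of heterozygote 1 47601747 over 5000 and that of heterozygote 2 100801564 over 13866, with lowest barcode totals of 586, 2466 and 500. Gene symbols came from the deposited feature lists, and 31952 of 32594 identifiers matched GENCODE vM21 with their version.

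Cells needed 500 or more genes and no more than 15% mitochondrial UMIs, and simulated-doublet scores removed the top 0.8% per 1000 barcodes (952, 191 and 1118). Cells were clustered (2000 variable genes, 30 components, 15 neighbours, leidenalg 0.10.2 at resolution 1.0), leaving out cell cycle genes and genes at or above 0.1% of the UMIs in barcodes with under 500 genes. Clusters were named by at least 3 detected markers, and 2075, 674 and 2719 cells stayed unnamed. A cluster with no marker of its own type among its top 10 genes and 3 or more of another stayed unnamed, a rule added after seeing the data.

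Counts were summed per library and cell type (at least 50 cells in each) and tested with edgeR 4.0.16 (quasi-likelihood, filterByExpr, TMM, Benjamini-Hochberg over all genes, threshold 0.05), 1 library against 2. DESeq2 1.42.0 and limma 3.58.1 were alternatives, and the fits were tested on simulated data. Sums carry exact 95% Poisson intervals, which treat UMIs as independent, and shares exact 95% Clopper-Pearson intervals, for counting error only. An exact permutation test of 1 against 2 libraries cannot go below 0.33, so none was used. Values in full are given for genes that passed in luminal cells and for Mki67, Top2a, Ccnb1, Cdk1, Mcm2, Mcm5, Pcna, Tyms, Ccne1 and Ccne2; of the other pathway lists, for those that passed and the 3 most abundant in luminal cells. Other members named were chosen after their values were seen.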

Additional observations from a re-analysis of the deposited data

How the results depend on the processing

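The luminal count of 8 lower G2/M genes was 3 with DESeq2, 4 with limma-voom, 4 in deeper cells only (at least 2466 UMIs) and 2 without the 10 cells richest in G2/M UMIs. Single luminal clusters, added after seeing the data, gave 1 of 17 tested in cluster 1, 5 of 20 in cluster 2, 0 of 11 in cluster 4 (median -1.69, against -1.42 over all luminal cells), 0 of 4 in cluster 13 and 0 of 6 in cluster 14; none could be tested in cluster 18. The other alternatives gave a count within 1.5 times of 8. With the single clusters and the secretory cells alone left aside, Birc5 passed in 14 of 14 alternatives with an adjusted p, Cenpf and Mki67 in 13 each, Ube2c in 12, Cdc20 and Cdk1 in 9 each, Hmmr in 9 of 13 and Nusap1 in 5 of 14. The count of 0 lower S genes was 1 (Uhrf1) without the filter on low counts and 1 with the looser cell filter. Of all luminal genes, 60, 89 and 101 were lower with DESeq2, limma-voom and deeper cells against 193, and 36 and 81 were higher with DESeq2 and deeper cells against 131. The 1 call in seminal vesicle-like cells was 0 with DESeq2, 2 with the stricter cell filter (Cdc6 and Cenpf) and 0 in cluster 3 alone. The cause of these changes was not tested.

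On the log2 scale, knockout over heterozygote mean, the luminal G2/M sum was -1.08, -0.628 without the 10 richest cells, and -1.18 to -0.984 without either heterozygote. The luminal S sum was -0.152, -0.095 without those cells and -0.173 to -0.131 without either heterozygote. The basal S sum of -0.037 turned to 0.018 without seminal vesicle genes and ran from -0.126 to 0.058 without either heterozygote. The basal G2/M sum of -0.0574 turned to 0.115 without the richest cells and ran from -0.244 to 0.156 without either heterozygote. The difference in the luminal share of cells with at least 3 G2/M genes was -0.843 percentage points, -0.0635 with at least 2 genes, and -1.30 to -0.383 without either heterozygote. The basal one was 0.867, 2.29 with at least 2 genes, -0.00075 with at least 5, -0.0805 and 0.184 thinned to 1000 and 3000 UMIs, and 0.637 to 1.10 without either heterozygote. Luminal Mcm5 (0.04) turned to -0.28 with the stricter cell filter, -0.024 at resolution 0.5 and -0.0127 in deeper cells, and ran from -0.0528 to 0.129 without either heterozygote.

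No paired analysis was possible because there is 1 knockout library and replicate numbers only name libraries. Leaving out a heterozygote leaves 1 library against 1, a value with no test. Counts of 2 to 12 UMIs in the knockout limit how well most lower genes were measured.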

Other observations

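In T or NK cells, Cenpa, the centromeric histone, made up most of the knockout's G2/M UMIs: 317 of 414 (76.6%), beside 17 of 56 (30.4%) and 42 of 100 (42%) in heterozygotes 1 and 2. Its levels there were 461, 299 and 342 CPM, so Cenpa itself was highest in the knockout. The other 24 G2/M genes together were at 1.41 per 10000 UMIs in the knockout, beside 6.85 and 4.73. In heterozygote 1, 1 of 13 cells held 33 of the 56 G2/M UMIs, and in heterozygote 2 1 cell held 30 of the 100, so the heterozygotes' values rest largely on single cells. Mki67 was at 10.2, 87.8 and 89.7 CPM in these cells, on 7, 5 and 11 UMIs in 5, 1 and 3 cells. In macrophages Cenpa was likewise 57.9%, 66.7% and 34.2% of the G2/M UMIs, and in luminal cells 2.95%, 3.29% and 3.86%. Heterozygote 1 held 13 T or NK cells and 30 macrophages, under the 50 needed, so these differences were not tested.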
